A study of Mus musculus with 8 samples.

Results

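Proliferation genes comprise the machinery of DNA replication and of mitosis, and 53 of them were followed in adipose tissue macrophages sorted as positive or negative for surface FCGR4. They were listed by symbol, and each of the 53 was found once among the 54146 genes of the deposited counts. Bulk RNA-Seq had been performed on macrophages sorted from the epididymal white adipose tissue (eWAT) of 4 obese C57Bl6 mice, giving 1 FCGR4+ and 1 FCGR4- library per mouse, 8 in all. Both populations came from mice that ate a high-fat diet freely for 24 weeks and then were restricted to 30% less food over 2 weeks (termed stCR, for short-term caloric restriction), so no library represents unrestricted mice. Per the study's methods the mice were male, the diet was a high-fat, high-cholesterol diet, and the antibodies used for sorting included ones against CD45, CD11b, CD3, B220, Ly6G, SiglecF, and FCGR4. The gates that defined a macrophage are not given in the sources used here. The age of the animals, and whether LDL receptor deficiency was induced in them, are not given in the sources used here. FCGR4 is an activating receptor for IgG that promotes phagocytosis. The comparison asks whether FCGR4+ and FCGR4- macrophages of the same mouse differ in the transcripts of dividing cells.

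A cell that enters division first licenses its replication origins and raises its supply of deoxynucleotides, then copies its DNA in S phase under the control of cyclin E, cyclin A, and CDK2, and finally enters mitosis when cyclin B activates CDK1. Transcripts for replication are driven mainly by E2F factors at the start of S phase. Those for mitosis are driven later by MYBL2 and FOXM1, through a promoter element termed the cell cycle genes homology region (CHR), which often stands near CCAAT boxes. Tissue macrophages can renew by local division as well as from circulating monocytes, and dividing macrophages are a known feature of obese adipose tissue. Since only a small share of macrophages divides at any time, these transcripts are usually rare in bulk RNA.

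The promoters of 5 of the genes are shown because they carry the elements named above in different combinations. Sequences are from RefSeq (build GRCm38.p6, equal to mm10 in its chromosomes) and are written 5′ to 3′ on the strand of the gene, with capitals for CHR motifs (TTTGAA or TTCGAA), for the CCAAT motif, and for E2F motifs (TTCCCGC or TTGGCGC or TTCGCGC or TTGCCGC), each searched on both strands. Position 1 is the start given with the promoter, and each window begins 250 bases before it and stops after at most 30 bases of annotated exon. In all 5 genes the gene start in the annotation used for counting differs from position 1. Motif positions are therefore relative to the promoter start and not to those exons. The *Hmgb2* window reaches position 50 with 0 exon bases. *Hmgb2* (chr8:57511593-57511892, plus strand), *Ccnb2* (chr9:70421518-70421804, minus strand), and *Cdc20* (chr4:118437323-118437593, minus strand) were chosen by their level among genes with a CHR motif. *Mcm7* and *Cenpa* also met that choice but are not shown, because annotated exons fill much of their windows. *Cdk1* (chr10:69352909-69353162, minus strand) and *Rrm2* (chr12:24708004-24708270, plus strand) were added after their values had been seen.
Hmgb2: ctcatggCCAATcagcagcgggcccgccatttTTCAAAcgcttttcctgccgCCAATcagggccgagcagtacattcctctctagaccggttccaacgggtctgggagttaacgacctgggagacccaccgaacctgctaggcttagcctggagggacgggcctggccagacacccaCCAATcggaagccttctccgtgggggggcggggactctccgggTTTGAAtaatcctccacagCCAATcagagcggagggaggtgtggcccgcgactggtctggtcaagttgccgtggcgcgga
Ccnb2: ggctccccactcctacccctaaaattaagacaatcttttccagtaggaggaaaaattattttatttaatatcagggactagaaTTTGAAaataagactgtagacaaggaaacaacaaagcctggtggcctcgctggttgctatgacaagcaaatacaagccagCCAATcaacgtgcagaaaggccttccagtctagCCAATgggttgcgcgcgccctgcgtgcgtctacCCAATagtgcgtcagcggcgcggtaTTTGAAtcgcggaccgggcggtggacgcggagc
Cdc20: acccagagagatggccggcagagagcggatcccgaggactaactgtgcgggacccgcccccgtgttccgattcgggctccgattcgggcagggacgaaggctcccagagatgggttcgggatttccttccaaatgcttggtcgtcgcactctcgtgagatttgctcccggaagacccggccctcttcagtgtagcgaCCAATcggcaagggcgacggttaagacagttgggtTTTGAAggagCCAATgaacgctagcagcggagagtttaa
Cdk1: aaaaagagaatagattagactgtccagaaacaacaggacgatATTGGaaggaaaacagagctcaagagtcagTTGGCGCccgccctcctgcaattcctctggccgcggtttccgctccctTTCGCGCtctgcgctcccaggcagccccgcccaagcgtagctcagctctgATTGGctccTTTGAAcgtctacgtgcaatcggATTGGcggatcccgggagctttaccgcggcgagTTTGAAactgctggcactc
Rrm2: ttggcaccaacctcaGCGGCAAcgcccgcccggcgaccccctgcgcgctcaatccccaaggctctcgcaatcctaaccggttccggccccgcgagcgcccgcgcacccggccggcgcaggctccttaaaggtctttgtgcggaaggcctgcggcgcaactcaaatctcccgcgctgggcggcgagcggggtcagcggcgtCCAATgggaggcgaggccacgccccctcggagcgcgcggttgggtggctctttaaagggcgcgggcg

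In *Ccnb2*, which encodes cyclin B2, a CHR motif spans positions 5 to 10 and follows CCAAT motifs that begin at positions -87, -54, and -21. In *Cdc20*, an activator of the anaphase-promoting complex, the CHR motif begins at position -18, between 2 CCAAT motifs. The *Cdk1* window held CHR motifs that begin at positions -71 and -15 and also 2 E2F motifs, whereas the *Rrm2* window held 1 E2F motif, 1 CCAAT motif, and 0 CHR motifs. The RefSeq table held 46 promoters of 43 of the 53 genes, each 300 bases long. A CHR motif was present in 45.7% of them (19.2% of all 32851 promoters in the table), a CCAAT motif in 73.9% (37.4%), an E2F motif in 37.0% (9.57%), and CHR and CCAAT together in 45.7% (7.52%). The E2F and CHR motifs differed in share by role, and the CCAAT motif was frequent in both. Among 18 promoters of replication, nucleotide, and S phase genes, 13 held an E2F motif, 3 a CHR motif, and 13 a CCAAT motif. Among 17 promoters of mitotic kinase, anaphase, and spindle genes, 0 held an E2F motif, 13 a CHR motif, and 14 a CCAAT motif. These are matches of letters and not measured binding sites, and an E2F and a CCAAT motif can share bases.

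As a check of the sort, *Fcgr4* had 215, 139, 208 and 236 CPM (counts scaled to the normalized size of the library) in the FCGR4+ libraries of mice 1, 2, 3, and 4 and 48.5, 52.2, 81.1 and 82.9 in the FCGR4- libraries. Every FCGR4+ library lay above every FCGR4- library, with means of 199.6 ± 42.4 and 66.2 ± 18.3 CPM (SD, n = 4) and a log2 fold change of 1.61 (SE 0.17, adjusted P = 0.0162). Total counts ranged from 35992794 to 66856746 per library, and 3 counts, taken as the floor, correspond to 0.0440 to 0.0883 CPM. All 53 proliferation genes had at least 22 counts in every library and all 53 passed the filter on low counts, as did 17095 genes in total. All 14 macrophage markers examined were above the floor in both populations, and their summed level was 34549, 59008, 33484, and 34607 CPM in FCGR4+ and 31781, 52726, 27134, and 31906 CPM in FCGR4- libraries of mice 1, 2, 3, and 4. The macrophage sum was thus higher in the FCGR4+ library in 4 of 4 mice. Over the 14 markers the log2 fold change had a median of 0.28, with 10 positive (49.7% of all genes tested) and 4 negative. In 4 of 4 mice, 8 markers were higher (8.35% of all genes) and 1 was lower (10.4%). At an adjusted P value under 0.1 in edgeR's paired test, 0 markers were higher (0.0819%) and 1 was lower (1.19%). In sorted bulk RNA, more dividing cells and more RNA per dividing cell cannot be told apart. Values per library are given below in the order of mice 1, 2, 3, and 4.

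Proliferation genes leaned toward FCGR4+ macrophages by small amounts, and the number of single genes past the threshold depended on the method, from 0 with edgeR to 5 with DESeq2 and 6 with edgeR on unfiltered counts. The log2 fold change of FCGR4+ over FCGR4- was positive for 50 of 53 genes (49.7% of all genes tested), with a median of 0.33 and quartiles of 0.21 and 0.58. The median over all genes was -0.0025. edgeR's quasi-likelihood test, paired within mice and read at an adjusted P value under 0.1, called 0 of 53 genes higher (0.0819% of all genes, 14 of 17095) and 0 lower (1.19%, 203 of 17095). At an unadjusted P value under 0.05, 12 genes were higher (3.1% of all genes) and 0 lower (6.67%). DESeq2 with the same pairs called 5 higher (1.12% of all genes) and 0 lower (4.87%), namely *Rrm2* (adjusted P = 0.00797), *Rrm1* (0.0263), *Pcna* (0.0458), *Tk1* (0.054), and *Cdk1* (0.0739). Without the filter on low counts, edgeR called 6 genes higher (0.418% of all genes), which were *Rrm2*, *Pcna*, *Tk1*, and *Cdk1* together with *Tyms* and *Stmn1*, and 0 lower (2.35%). edgeR's newer quasi-likelihood method called 1 higher, *Rrm2* (0.333% of all genes), and 0 lower (3.36%), and without pairing the counts were 0 (0.00585%) and 0 (0.275%). The 95% interval of the difference included 0 for 41 genes, excluded a 2-fold excess in FCGR4+ cells for 30, and excluded a 2-fold deficit for all 53. Its median half-width was 0.54 on the log2 scale, wider than the median difference. For 17 of the 53 genes, at least 10% of the 50-base words or exon bases are shared with another gene, and the other 36 had a median of 0.37 with 34 positive.

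**Figure D1:**
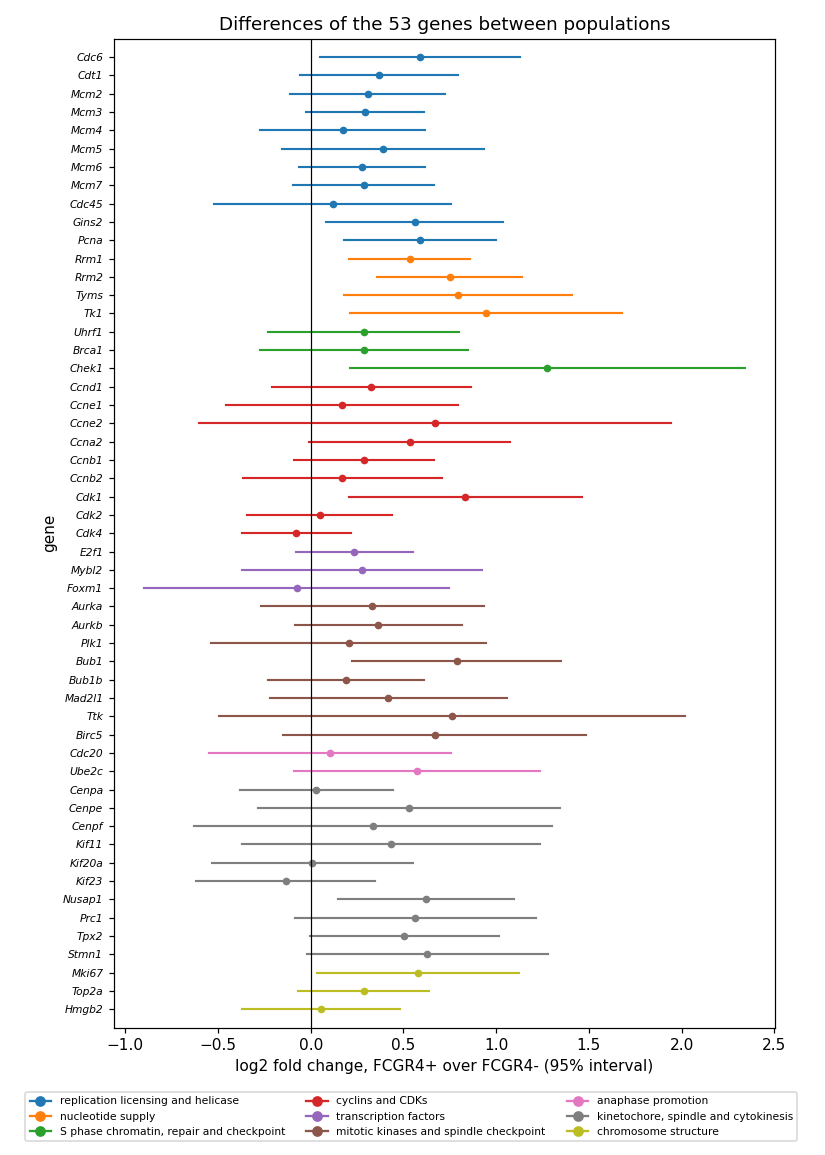
Log2 fold change of FCGR4+ over FCGR4- macrophages (horizontal axis) for each of the 53 genes (vertical axis, colored by role), with points for edgeR's paired estimate and lines for the 95% interval. 50 points lie right of 0 and 41 of the intervals cross it.

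Within mice, 20 of the 53 genes were higher in the FCGR4+ library in 4 of 4 mice (8.35% of all genes), 20 in 3 of 4, 10 in 2, 3 in 1, and 0 in none (10.4% of all genes were lower in 4 of 4). For 0 genes did all 4 FCGR4+ libraries lie above all 4 FCGR4- libraries (0.883% of all genes). Taking each mouse alone, 33, 47, 44, and 39 of the 53 genes were higher in the FCGR4+ library (52.5%, 49.5%, 47.3%, and 49.4% of all genes), and the median within-mouse log2 ratio was 0.09, 0.53, 0.58, and 0.21. Mouse 1 thus showed the smallest difference. 9 genes, among them *Mki67*, *Tk1*, and *Tyms*, were higher in FCGR4+ cells in mice 2, 3, and 4 but not in mouse 1 (9.73% of all genes).

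The largest group median was that of nucleotide supply, in which 4 of 4 genes had positive log2 fold changes with a median of 0.77. *Rrm2*, the regulatory subunit of ribonucleotide reductase that is made in S phase, had 34.7, 19.97, 17.04 and 21.8 CPM in FCGR4+ and 25.3, 10.9, 8.11 and 14.3 in FCGR4- libraries. Its FCGR4+ library was the higher in each mouse, although the FCGR4- library of mouse 1 exceeded 3 of the FCGR4+ libraries. The fold was 1.68 (log2 fold change 0.75, 95% interval 0.36 to 1.14), and its adjusted P value of 0.149 was the smallest of the 53 genes. *Rrm1*, the catalytic subunit of the same enzyme, had the smallest difference of the group, with 75.2, 57.9, 53.5 and 58.1 CPM in FCGR4+ and 61.8, 39.1, 30.98 and 41.2 in FCGR4- libraries. It was also higher in 4 of 4 mice, with overlapping populations and a log2 fold change of 0.53 (SE 0.14, adjusted P = 0.215). *Tk1*, the thymidine kinase of the salvage pathway, had 25.7, 22.9, 33.2 and 24.3 CPM against 26.3, 7.56, 10.4 and 16.6. Its populations were alike in mouse 1, 25.7 against 26.3 CPM, and set apart in mice 2 and 3, which gave the highest log2 fold change of the group at 0.94 (SE 0.31, adjusted P = 0.356). *Tyms*, which makes thymidylate for DNA, was likewise lower in FCGR4+ cells in mouse 1 and higher in the other 3 mice, with within-mouse log2 ratios of -0.14, 1.01, 1.27 and 1.02 and a log2 fold change of 0.79 (SE 0.26, adjusted P = 0.357).

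Licensing and helicase genes all had positive log2 fold changes (11 of 11, median 0.31), and 7 of 11 were higher in 4 of 4 mice. *Pcna*, the sliding clamp of DNA polymerases, had 173, 108, 142 and 177 CPM in FCGR4+ and 150.4, 82.1, 66.8 and 111 in FCGR4- libraries. Each mouse had more in FCGR4+ cells, and the FCGR4- libraries of mice 1 and 4 lay within the FCGR4+ range. The log2 fold change was 0.59 (SE 0.17, adjusted P = 0.297), and 19.1% of its 50-base words also occur in a pseudogene, *Pcna-ps2*, whose reads the counting could not separate. *Cdc6*, which loads the MCM helicase at origins, had 6.39, 4.78, 3.94 and 3.69 CPM against 4.63, 3.24, 2.203 and 2.61. It showed the highest log2 fold change of the group, 0.59 (SE 0.23, adjusted P = 0.466), and within-mouse log2 ratios of 0.46, 0.56, 0.83 and 0.50. *Mcm2*, a subunit of that helicase, had 35.1, 25.4, 10.9 and 26.2 CPM against 26.5, 15.7, 12.1 and 21.7, lower in FCGR4+ cells in mouse 3 only, with a log2 fold change of 0.31 (SE 0.18, adjusted P = 0.5996). The 6 genes of the MCM complex had log2 fold changes between 0.17 (*Mcm4*) and 0.39 (*Mcm5*), and 0 of them had an unadjusted P value under 0.05. *Cdc45*, a helicase cofactor, had the lowest value of the group, with 6.95, 5.59, 4.44 and 4.42 CPM against 7.495, 5.15, 2.35 and 5.93. Its populations overlapped fully, 2 of 4 mice were higher, and the log2 fold change was 0.12 (SE 0.27, adjusted P = 0.891). *Cdt1*, another MCM loader, gave 0.37 (SE 0.18, adjusted P = 0.557) and *Gins2*, a helicase subunit, 0.56 (SE 0.20, adjusted P = 0.425). For *Gins2*, 67.3% of the exon bases overlap the gene *Gse1*, so its counts are uncertain, as are those of *Kif20a*, 33.2% of whose exon bases overlap *Cdc23*.

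Genes of S phase chromatin, repair, and checkpoint were 3, and all had positive log2 fold changes. *Chek1*, the kinase of the replication checkpoint, had 5.43, 1.77, 1.36 and 4.898 CPM in FCGR4+ and 4.11, 1.27, 0.397 and 0.8499 in FCGR4- libraries. The populations overlapped, and mice 3 and 4 differed far more than mice 1 and 2. This gave the highest log2 fold change of all 53 genes with one of the 3 widest intervals (1.28, 0.21 to 2.34, adjusted P = 0.408). *Uhrf1*, which carries DNA methylation marks to new DNA, had 21.4, 16.6, 12.5 and 14.8 CPM against 24.3, 8.53, 9.86 and 14.3. It was lower in FCGR4+ cells in mouse 1 and higher in the other 3 mice, with a log2 fold change of 0.29 (SE 0.22, adjusted P = 0.669). *Brca1*, a repair gene, was higher in 4 of 4 mice by 0.29 (SE 0.24, adjusted P = 0.6898).

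Of 9 cyclins and their kinases, 8 had positive log2 fold changes, with a median of 0.29. *Cdk1*, the kinase that starts mitosis, had 17.4, 11.8, 17.2 and 22.98 CPM in FCGR4+ and 16.7, 8.21, 6.14 and 9.58 in FCGR4- libraries. The difference was small in mouse 1 and large in mice 3 and 4, and only the FCGR4- library of mouse 1 reached the range of the FCGR4+ libraries. The fold was 1.78, with a log2 fold change of 0.83 (SE 0.27, adjusted P = 0.338). *Ccnb1*, the cyclin B1 that activates CDK1, had 24.03, 12.2, 11.98 and 17.2 CPM against 17.3, 11.6, 8.83 and 15.4. Every mouse was higher in FCGR4+ cells, the populations overlapped, and the log2 fold change was 0.29 (SE 0.16, adjusted P = 0.593). *Ccna2*, cyclin A2 of S phase, gave 0.53 (SE 0.23, adjusted P = 0.514) with 4 of 4 mice higher, while *Ccnb2* gave 0.17 (SE 0.23, adjusted P = 0.806) with 2 of 4. *Ccnd1*, cyclin D1, which couples growth signals to G1, had 25.5, 12.6, 11.5 and 13.8 CPM against 24.3, 6.42, 7.96 and 16.3. Its libraries of mouse 1 were nearly equal, mouse 4 was lower in FCGR4+ cells, and the log2 fold change was 0.33 (SE 0.23, adjusted P = 0.648). *Cdk4*, the G1 partner of cyclin D, had 79.4, 98.8, 92.7 and 96.8 CPM against 91.4, 104, 99.3 and 92.5. The populations overlapped closely, and *Cdk4* had the lowest value of its group, a log2 fold change of -0.08 (SE 0.12, adjusted P = 0.837) with a 95% interval of -0.37 to 0.22, and 1 of 4 mice was higher. *Cdk2*, *Ccne1*, and *Ccne2*, the kinase and cyclins of the G1 to S transition, had log2 fold changes of 0.05, 0.17, and 0.67, and the last had the widest interval of them, -0.60 to 1.94.

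The transcription factors of the cell cycle were nearest to 0 as a group, with a median log2 fold change of 0.23 over 3 genes. *E2f1*, an activator of replication genes, was higher in 4 of 4 mice by 0.23 (SE 0.13, adjusted P = 0.598). *Mybl2* (B-MYB), which binds with the complex at CHR elements, had 7.15, 4.03, 1.92 and 7.55 CPM in FCGR4+ and 4.68, 5.06, 1.95 and 4.26 in FCGR4- libraries, with 2 of 4 mice higher and a log2 fold change of 0.28 (SE 0.27, adjusted P = 0.736). *Foxm1*, a factor for mitotic genes, had 6.71, 3.95, 1.74 and 6.102 CPM against 7.37, 3.27, 4.099 and 3.63. Mouse 3 lay far lower and mouse 4 higher in FCGR4+ cells, and the log2 fold change of -0.08 (SE 0.35, adjusted P = 0.948) turned positive without mouse 3.

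**Figure D2:**
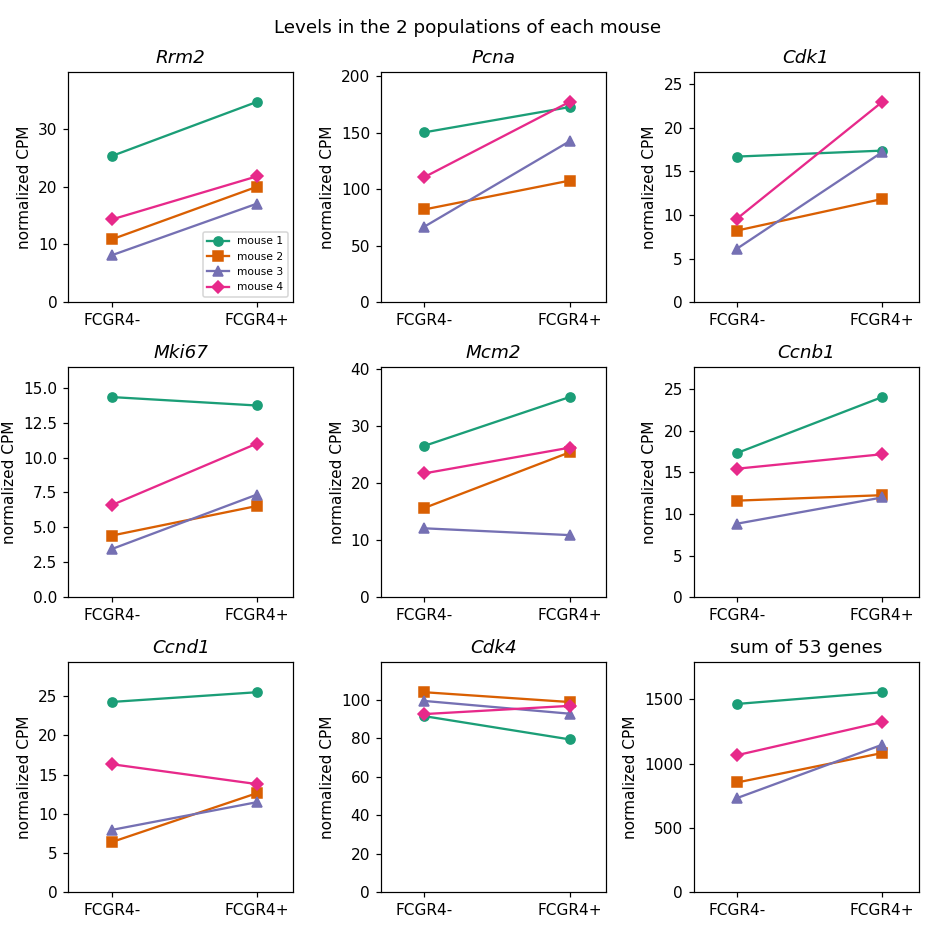
Normalized CPM (vertical axes, from 0) of 8 genes and of the sum of the 53 genes in the FCGR4- and FCGR4+ library of each mouse, with 1 line per mouse. Lines slope upward in 4 of 4 mice for *Rrm2*, *Pcna*, *Cdk1*, *Ccnb1*, and the sum, and *Cdk4* is nearly flat.

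Mitotic kinases and genes of the spindle checkpoint, which holds anaphase until every chromosome is attached, had positive log2 fold changes in 8 of 8 cases (median 0.39). *Bub1*, a checkpoint kinase, had 10.8, 6.61, 5.62 and 5.65 CPM in FCGR4+ and 9.67, 3.15, 2.56 and 3.24 in FCGR4- libraries. Mouse 1 was nearly even and the other 3 mice had clear differences, and the log2 fold change of 0.79 (SE 0.24, adjusted P = 0.306) was the highest of the group. *Bub1b*, which encodes the related BUBR1, was lowest, with 18.2, 11.1, 11.9 and 9.48 CPM against 13.3, 9.89, 9.52 and 10.8, a reversal in mouse 4 and a log2 fold change of 0.19 (SE 0.18, adjusted P = 0.722). Of the kinases, *Aurkb* was higher in 4 of 4 mice (0.36 (SE 0.19, adjusted P = 0.571)), *Aurka* in 3 (0.33 (SE 0.26, adjusted P = 0.67)), and *Plk1* in 2 (0.21 (SE 0.31, adjusted P = 0.829)). *Ttk* and *Mad2l1*, checkpoint genes, and *Birc5*, the survivin subunit of the Aurora B complex, had log2 fold changes of 0.76, 0.42, and 0.67 and were lower in FCGR4+ cells in mouse 1 only.

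Both genes of anaphase promotion had wide intervals. *Ube2c*, the ubiquitin-conjugating enzyme of the anaphase-promoting complex, had 9.66, 11.3, 12.3 and 13.03 CPM in FCGR4+ and 10.7, 7.97, 4.24 and 9.69 in FCGR4- libraries. The FCGR4- library of mouse 3 stood lowest, and the log2 fold change was 0.57 (SE 0.28, adjusted P = 0.557). *Cdc20* had 8.08, 8.61, 8.13 and 6.83 CPM against 11.9, 5.74, 4.803 and 8.75. The FCGR4+ libraries lay close together inside the range of the FCGR4- libraries, and the log2 fold change was 0.10 (SE 0.28, adjusted P = 0.908), with 2 of 4 mice higher.

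Genes of the kinetochore, spindle, and cytokinesis had positive values in 9 of 10 cases (median 0.47). *Stmn1*, which destabilizes microtubules, had 137, 73.1, 96.8 and 121 CPM in FCGR4+ and 167, 44.8, 33.3 and 81.97 in FCGR4- libraries. The FCGR4- libraries spanned a far wider range, with both the highest and the lowest value of all 8, and the log2 fold change was 0.63 (SE 0.28, adjusted P = 0.515). *Nusap1*, a spindle protein, was higher in 4 of 4 mice (0.62 (SE 0.20, adjusted P = 0.347)), as were *Prc1*, a cytokinesis protein (0.56 (SE 0.28, adjusted P = 0.556)), and *Tpx2*, an activator of Aurora A (0.51 (SE 0.22, adjusted P = 0.511)). *Kif23*, a motor of cytokinesis, had 6.103, 3.66, 3.53 and 6.77 CPM against 6.803, 3.33, 4.42 and 7.71. It had the lowest log2 fold change of the 53 genes at -0.14 (SE 0.21, adjusted P = 0.828), and 1 of 4 mice was higher. The motors *Kif11* and *Kif20a* gave 0.43 and 0.01, and the centromere genes *Cenpa*, *Cenpe*, and *Cenpf* gave 0.03, 0.53, and 0.33. Within mice, *Kif11* ranged from -0.69 in mouse 2 to 1.21 in mouse 4.

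Chromosome structure closed the list with 3 genes. *Mki67*, which encodes the Ki-67 protein used to stain cycling cells, had 13.7, 6.53, 7.35 and 11 CPM in FCGR4+ and 14.3, 4.41, 3.45 and 6.59 in FCGR4- libraries. The populations overlapped. Mouse 1 was highest in both and nearly even between them, whereas mice 2, 3, and 4 had more in FCGR4+ cells. The log2 fold change was 0.58 (SE 0.23, adjusted P = 0.483). *Top2a*, the topoisomerase that untangles chromosomes, had 47.7, 17.2, 16.4 and 21.1 CPM against 38.5, 13.4, 11.7 and 21.3. Mouse 1 again stood above the rest in both populations, mouse 4 was even, and the log2 fold change was 0.29 (SE 0.15, adjusted P = 0.571). *Hmgb2*, a DNA-bending protein that many cells express outside division, had 86.5, 61.1, 136 and 131 CPM against 91.99, 82.7, 117 and 90.6. Mice 1 and 2 were lower and mice 3 and 4 higher in FCGR4+ cells, with a log2 fold change of 0.05 (SE 0.18, adjusted P = 0.927).

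Mice differed from each other in these genes in a shared way. Among FCGR4- libraries, mouse 1 was the highest for 46 of 53 genes (29.1% of all genes tested) and mouse 3 the lowest for 38 (25.9%). Among FCGR4+ libraries, mouse 1 was the highest for 32 (29.6%) and mouse 3 the lowest for 25 (30.6%). The genes that did not peak in the FCGR4- library of mouse 1 were *Cdk4*, *E2f1*, *Mybl2*, *Hmgb2*, *Mcm4*, *Cenpa*, and *Kif23*. Relative to each gene's mean over its population, the median deviation in FCGR4- libraries was 0.74, -0.21, -0.57, and 0.14 on the log2 scale, and in FCGR4+ libraries it was 0.42, -0.14, -0.24, and 0.04. The corresponding medians over all genes lay between -0.02 and 0.08. The range over mice had a median of 0.94 in FCGR4+ and 1.43 in FCGR4- libraries, and it exceeded the log2 fold change in size for 47 and 53 of the 53 genes. Animal IDs in the labels divide the mice into 2 pairs by prefix, mice 1 and 2 and mice 3 and 4, and the median log2 fold change was 0.29 in the first pair and 0.35 in the second.

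**Figure D3:**
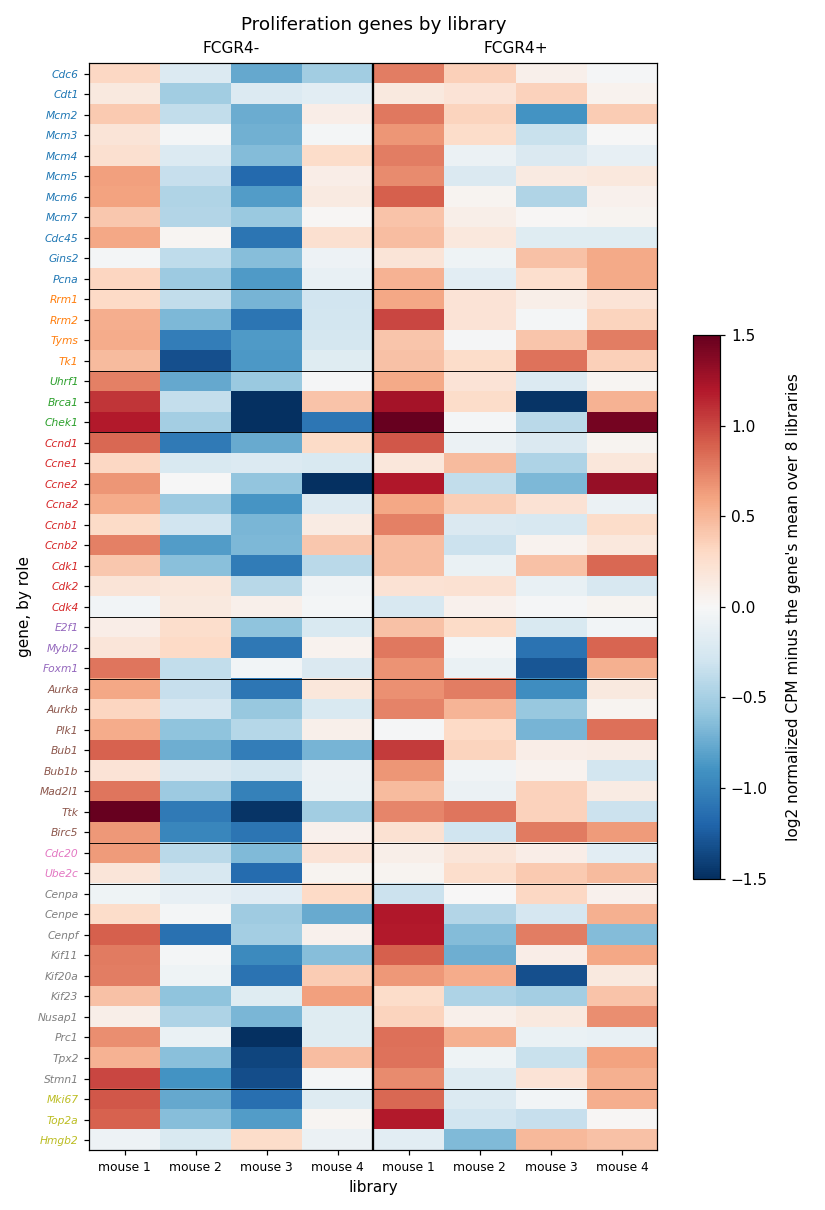
Log2 normalized CPM of each of the 53 genes (rows, grouped by role) in each library (columns), as the difference from the gene's mean over 8 libraries, with red above and blue below. The FCGR4- library of mouse 1 is mostly red and that of mouse 3 mostly blue across the roles, and mouse 1 is also the reddest of the FCGR4+ libraries.

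Summed over the 53 genes, the level was 1556, 1084, 1148, and 1324 CPM in FCGR4+ libraries and 1465, 855, 734, and 1067 CPM in FCGR4- libraries, between 0.0734% and 0.156% of a library. The FCGR4+ library had the larger sum in 4 of 4 mice, with means of 1278 ± 211 and 1030.0 ± 321 CPM (SD, n = 4) and a mean within-mouse log2 ratio of 0.35 (SD 0.23). The populations overlapped because the FCGR4- library of mouse 1 exceeded 3 of the FCGR4+ libraries. The sum is dominated by abundant transcripts. On the scale of CPM per kb of gene length, the level was highest for *Pcna* (52.6), followed by *Stmn1* (49.1), *Hmgb2* (33.2), and *Cdk4* (29.0), and lowest for *Cenpf* (0.130), with *Mki67* at 0.837. Over the 8 libraries the ranges of *Pcna*, *Stmn1*, *Hmgb2*, and *Cdk4* all overlapped one another.

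**Figure D4:**
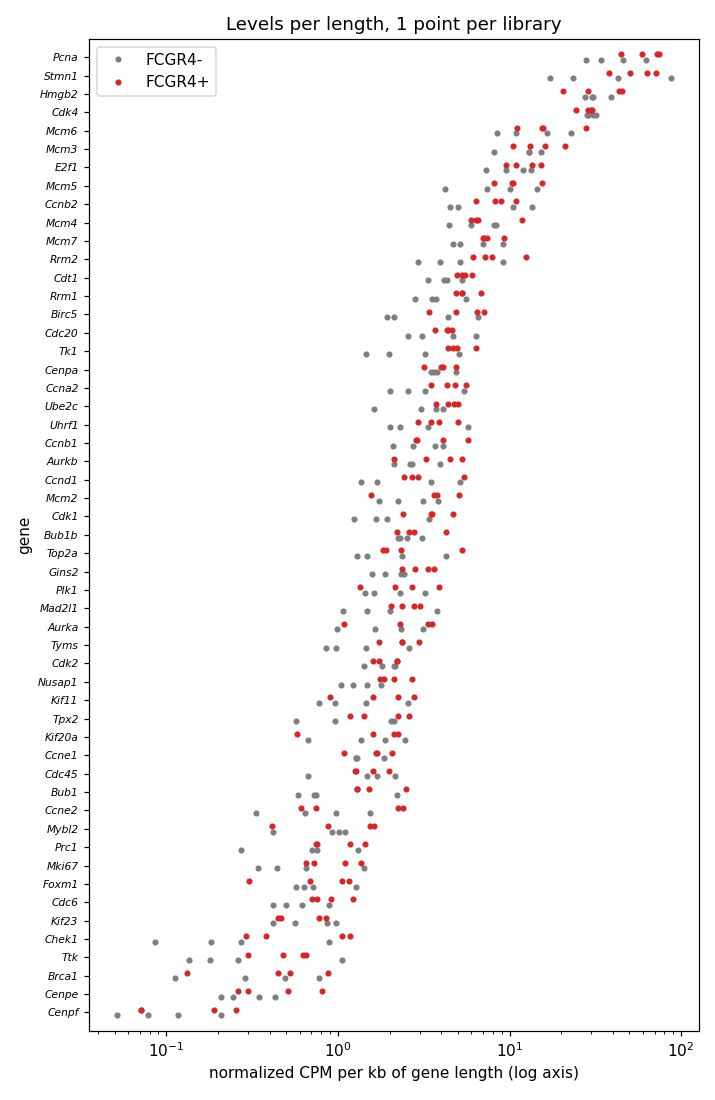
Normalized CPM per kb of gene length (horizontal log axis) of the 53 genes, ordered by mean, with 1 point per library in gray for FCGR4- and red for FCGR4+. Means run from 0.130 for *Cenpf* to 52.6 for *Pcna*, and red and gray points overlap for every gene.

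Summed markers of 7 other cell types were lower in the FCGR4+ library in 4 of 4 mice, and those of 3 more were not. Summed levels were 14.5 to 31.2 CPM in FCGR4+ against 393 to 2167 CPM in FCGR4- libraries for 11 mast cell and basophil markers, 122 to 548 against 383 to 2391 CPM for 12 neutrophil markers, and 150.4 to 299 against 377 to 1602 CPM for 11 fibroblast markers. They were 248 to 364 against 513 to 2553 CPM for 10 B and plasma cell markers, 24.4 to 35.4 against 83.2 to 158 CPM for 12 dendritic cell markers, and 4.40 to 15.5 against 21.8 to 76.0 CPM for 14 T and NK cell markers. For 7 mesothelial markers they were 1.06 to 10.1 against 5.30 to 46.9 CPM. Of the tested markers, 2 of 9 for B and plasma cells and 1 of 12 for dendritic cells had positive log2 fold changes. All tested markers in the rest of these 7 lists were negative. The share called lower by edgeR varied by list, from 9 of 10 mast cell and basophil markers to 1 of 6 mesothelial markers (1.19% of all genes). At most 3 counts in every library of a population were found for *Pax5*, *Mpo*, and *Mcpt8* in FCGR4+ and *Mpo* in FCGR4- cells, and for no other marker listed. The lists that did not follow the population in every mouse were 9 endothelial markers, at 14.4 to 24.7 against 17.8 to 30.2 CPM, 9 adipocyte markers, at 127 to 196 against 84.4 to 161 CPM, and classical monocyte markers. The adipocyte sum was higher in the FCGR4+ library in 3 of 4 mice. However, 7 of the 9 adipocyte markers had negative log2 fold changes and 2 positive ones, with a median of -0.31. For 7 classical monocyte markers the sums were 715, 759, 2908, and 2762 CPM in FCGR4+ and 703, 1189, 4390.1, and 2995 CPM in FCGR4- libraries, lowest in mouse 1 and highest in mouse 3 in both populations. In FCGR4- libraries, mouse 1 had the highest and mouse 3 the lowest level of most proliferation genes. The mouse with the highest FCGR4- sum varied by cell type. It was mouse 1 for mast cell and basophil (2167, 1204, 393, and 510 CPM) and adipocyte markers, mouse 2 for T and NK cell, dendritic cell, and endothelial markers, mouse 3 for neutrophil (383, 579, 2391, and 651 CPM), fibroblast (923, 377, 1602, and 638 CPM), and mesothelial markers, and mouse 4 for B and plasma cell markers (1317, 513, 559, and 2553 CPM). The part of these cells, or of the higher macrophage sum in FCGR4+ libraries, in the levels of the 53 genes was not tested.

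Beyond the 53 genes, other replication and mitosis genes leaned the same way, while inhibitors and G1 regulators had medians near 0. Of 50 other replication genes, edgeR called 0 higher (0.0819% of all genes) and 0 lower (1.19%), and DESeq2 called 3 higher (1.12%) and 0 lower (4.87%). The median log2 fold change was 0.26, with 41 of 50 positive (49.7% of all genes), and 8 were higher (3.1%) and 1 lower (6.67%) at an unadjusted P value under 0.05. Of 66 other mitosis genes, edgeR called 1 higher (0.0819% of all genes) and 0 lower (1.19%), and DESeq2 called 7 higher (1.12%) and 1 lower (4.87%). The median was 0.33, with 50 positive (49.7%), and 11 were higher (3.1%) and 2 lower (6.67%) at an unadjusted P value under 0.05. The gene called was *Nuf2*, a subunit of the kinetochore complex that holds microtubules, with 12.2, 4.47, 6.803 and 7.18 CPM in FCGR4+ and 5.56, 1.91, 2.89 and 4.396 in FCGR4- libraries. It was 2.10-fold higher (log2 fold change 1.07 (SE 0.21, adjusted P = 0.0999)), in 4 of 4 mice, at the edge of the threshold. The call was lost when any 1 mouse was left out (adjusted P = 0.200 to 0.299), without the block (adjusted P = 0.681), in either pair of mice alone (adjusted P = 0.212 and 0.229), and with either of 2 other scalings (adjusted P = 0.101 and 0.138). It was kept with DESeq2 (adjusted P = 0.00126), without the filter on low counts (0.0191), with a stricter filter (0.0838), and with edgeR's newer method (0.0587).

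Of 22 cell cycle inhibitors, 21 were tested, and edgeR and DESeq2 each called 0 higher (0.0819% and 1.12% of all genes) and 0 lower (1.19% and 4.87%). At an unadjusted P value under 0.05, 1 was higher (3.1%) and 1 lower (6.67%). Their median log2 fold change was -0.06. *Cdkn1a* (p21) had 129, 161, 276 and 254 CPM in FCGR4+ and 111, 136, 425 and 263 in FCGR4- libraries, with a log2 fold change of -0.05 (SE 0.18, adjusted P = 0.933). *Cdkn1b* (p27) had a log2 fold change of 0.26 (SE 0.20, adjusted P = 0.663). The 2 genes were higher in FCGR4+ cells in 2 and 3 of 4 mice, respectively. Of 19 other G1 regulators and E2F family members, edgeR called 0 in either direction (0.0819% and 1.19% of all genes) and DESeq2 called 1 higher (1.12%) and 0 lower (4.87%). The median was 0.02, and 2 were higher (3.1%) and 2 lower (6.67%) at an unadjusted P value under 0.05. The remaining D cyclins were lower in FCGR4+ cells in 4 of 4 mice without passing the threshold. *Ccnd2* had 11.4, 6.66, 14.6 and 11.7 CPM against 15.7, 9.83, 17.8 and 18.2 (log2 fold change -0.49, SE 0.16, adjusted P = 0.346), and *Ccnd3* had 74.8, 56.8, 55.2 and 51.01 CPM against 76, 69.8, 92.5 and 68.6 (log2 fold change -0.37, SE 0.15, adjusted P = 0.501).

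Of 13 macrophage growth factors and receptors, 12 were tested, and edgeR called 1 lower (1.19% of all genes) and 0 higher (0.0819%), while DESeq2 called 2 lower (4.87%) and 0 higher (1.12%). *Csf1*, the growth factor on which most macrophages depend, had 1.37, 2.97, 3.705 and 5.08 CPM in FCGR4+ and 6.93, 11.04, 81.1 and 62.3 in FCGR4- libraries. Every FCGR4+ library lay below every FCGR4- library (3.02% of all genes did so), and within FCGR4- cells mice 3 and 4 stood far above mice 1 and 2. The log2 fold change was -3.10 (SE 0.44, adjusted P = 0.0448). The call was lost without mouse 1 (adjusted P = 0.103), without mouse 4 (adjusted P = 0.146), and without the block (adjusted P = 0.164), and it was kept under the other alternatives run (adjusted P = 2.2e-13 to 0.0695). *Csf1r*, its receptor, did not pass the threshold, with 1765, 1704, 873 and 978 CPM against 1616, 1354, 1352 and 1542 and a log2 fold change of -0.21 (SE 0.20, adjusted P = 0.735).

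**Figure D5:**
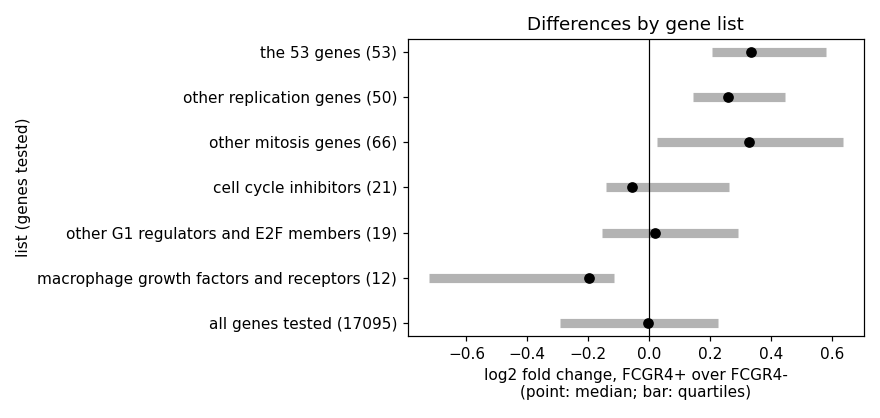
Median (points) and quartiles (bars) of the log2 fold change of FCGR4+ over FCGR4- macrophages (horizontal axis) for the 53 genes, 5 related lists, and all genes tested (vertical axis, number of genes tested in parentheses). Medians are 0.33, 0.26, and 0.33 for the proliferation, other replication, and other mitosis genes, against -0.06 for inhibitors and -0.0025 for all genes.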

How the data were processed

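FCGR4+ and FCGR4- macrophages of 4 mice gave 8 RNA-Seq libraries, grouped and paired by population and mouse number from the labels. Per the study's methods, the authors mapped reads to mm10 with STAR and counted them with featureCounts 1.6.3, and the deposited values are raw counts. The file header adds that read pairs were counted on GENCODE vM18 genes, that a pair with several alignments counts at every one, and that counting ignored strand. All per-sample columns were used (0 left out).

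The filter kept 17095 genes (10 or more counts in 4 or more of the 8 libraries). Scaling was by TMM in edgeR (factors 0.937 to 1.11), and its quasi-likelihood test was used with mouse as blocking factor (edgeR 4.0.16, R 4.3.3). P values were adjusted by the Benjamini-Hochberg method over all genes tested, and the threshold of 0.1 is the authors' own. CPM are TMM-normalized, within-mouse log2 ratios use a prior count of 2, and the SE is the log2 fold change over the root of the F statistic. Deviations from the population means correlated between libraries of the same mouse (r = 0.291 to 0.428 over genes, against a median of -0.0615 between mice). No library was a duplicate of another (chi-square per degree of freedom at least 82.9). The fits were tested on simulated counts.

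Members and lists were chosen with earlier results of these data known. Named with values per library were *Mki67*, *Top2a*, *Cdk1*, *Ccnb1*, *Ccnd1*, *Pcna*, and *Mcm2*, the genes with the highest and the lowest log2 fold change of each role, and *Rrm2*, added after its values had been seen. In related lists, genes past the threshold and 5 fixed genes were named. Promoters are from RefSeq, and shared sequence was computed with 50-base words of GENCODE vM21, a later release on the same build. Alternatives were no block, DESeq2 1.42.0, other scalings (RLE or library size alone), looser and stricter filters, a threshold of 0.05, edgeR's newer method, leaving out each mouse, and each pair of animal ID prefixes. The counts of direction and overlap, and the genes with little shared sequence, were added after the data had been seen.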

Additional observations from a re-analysis of the deposited data

Results flagged for a closer look

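For 3 genes, the within-mouse log2 ratio of 1 mouse stood far from those of the other 3, with a gap that exceeded 0.829 of the whole range (Dixon's test). *Mcm5* reached 1.298 in mouse 3 and 0.06 to 0.13 in the other mice (gap 0.943 of the range). *Aurka* was at 1.11 in mouse 2 and at -0.02 to 0.15 elsewhere (0.851). *Kif20a* was at 0.62 in mouse 2 and at -0.24 to -0.12 elsewhere (0.862). Of 61 groups of 4 values examined, 3 met this criterion, and 3.05 would by chance.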

How the results depend on the processing

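The median log2 fold change of the 53 genes stayed positive under every alternative run, from 0.25 with library size alone, which moved the median of all genes to -0.09, to 0.42 without mouse 1, and 45 to 51 genes were positive. The number of the 53 genes called higher was 0 except with DESeq2 (5), without a filter on low counts (6), and with edgeR's newer method (1, *Rrm2*), and the number called lower was 0 throughout. The pairing by mouse comes from the labels. Without the replicate block, 1 gene of all was called higher and 47 lower, and 0 of the 53. Over all genes, the counts called higher and lower were 192 and 832 with DESeq2, 159 and 895 without the filter, 57 and 575 with the newer method, 7 and 108 in mice 1 and 2 alone, and 2 and 74 at a threshold of 0.05. Library size alone gave 8 higher, mice 3 and 4 alone gave 61 lower, and leaving out 1 mouse gave 2 to 9 higher and 76 to 153 lower. The summed level kept its direction (mean log2 ratio 0.25 to 0.43).

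Library size alone turned *Cdk2* (-0.040), *Cenpa* (-0.058), *Kif20a* (-0.081), and *Hmgb2* (-0.035) negative, and a minimum of 10 counts in every library turned *Kif20a* (-0.0073). No replicate block turned *Foxm1* positive (0.0084). In mice 1 and 2 alone, *Foxm1* was at 0.061, *Cenpa* at -0.062, *Kif11* at -0.27, *Hmgb2* at -0.26, *Cdkn1a* at 0.23, and *Csf1r* at 0.23, and in mice 3 and 4 alone *Mcm4* was at -0.0062 and *Kif20a* at -0.25. Leaving out 1 mouse gave -0.15 to 0.30 for *Cdc45*, -0.028 to 0.33 for *Ccnb2*, -0.047 to 0.13 for *Cdk2*, -0.36 to 0.28 for *Foxm1*, -0.13 to 0.33 for *Cdc20*, -0.13 to 0.12 for *Cenpa*, -0.16 to 0.10 for *Kif20a*, -0.10 to 0.25 for *Hmgb2*, and -0.14 to 0.13 for *Cdkn1a*, and most of these turns came without mouse 3. The causes were not tested. In the 150 bases nearest the start, CHR, CCAAT, E2F, and CHR with CCAAT motifs were in 43.5%, 65.2%, 21.7%, and 37.0% of the promoters (8.59%, 23.4%, 5.60%, and 2.09% of all).

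With 4 mice, intervals were wide for rare transcripts, and lost calls follow in part from fewer samples. The share of counting error in that spread was not tested. Sorting purity, cell number, and RNA quality per library are not given in the sources used here.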
